A study of Mus musculus with 6 samples.

Results

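Pituitary hormone and lineage genes were followed in RNA from cranial base, the cartilage floor of the skull, of single mouse embryos at E15.5, where E counts embryonic days. The 8 genes were taken by symbol from a deposited table of 43496 gene entries: Pomc, Cga, Pou1f1, Pitx1, Lhx3, Lhx4, Hesx1 and Tbx19. Each had 1 entry. There were 3 control and 3 Memo1 mutant embryos, all of strain C57BL/6J, with 1 RNA-seq library per embryo. The mutants carried an allele of Memo1 made with the chemical mutagen ENU. The genotype of the controls beyond the word control, and whether the mutants carried 1 or 2 copies of the allele, are not given in the labels. The comparison asked which genes differ between mutant and control cranial base. Levels are read as FPKM (fragments per kilobase, corrected for library size), a unit inferred from the processing notes and the values. They are corrected for gene length and library size alone, so comparisons between genes and between libraries carry that limit. Mutant 1 in particular stands apart, as given below.

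The anterior pituitary forms from Rathke's pouch, a pocket of oral ectoderm that meets the floor of the diencephalon, and the finished gland rests in a hollow of the cranial base. Transcription factors act in sequence there: Hesx1, Pitx1, Lhx3 and Lhx4 in the pouch, then Tbx19 in the cells that make Pomc and Pou1f1 in the cells that will make growth hormone, prolactin or thyrotropin. Pomc encodes the precursor of corticotropin and melanotropin, and Cga the alpha subunit that thyrotropin and the gonadotropins share. Pitx1 is also known in oral ectoderm and in the mesenchyme of the first branchial arch.

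The sequences just before the start sites of 5 of the genes are shown because these genes were high in the same libraries. They are the RefSeq sequences of build GRCm38.p6, 5′ to 3′ along the gene's own strand, each 250 bases that end at the base before the start site. The table of promoters held 7 of the 8 genes in 9 windows, with none for Pitx1. Capitals mark every match, on either strand, to 7 short motifs: TATAAA (the TATA box), TAATTA (a homeodomain core palindrome), TAAGCC and TAATCC (bicoid-type sites, the class that Pitx proteins bind), AGGTGTG (a core site of T-box factors), TATNCAT (a POU-type site) and TGANNTCA (a palindrome of the cAMP response element class). Where 2 matches overlap they form 1 run of capitals. For Pou1f1 and Lhx3, which had 2 windows each, the window of the first start along the gene is shown.
Pomc, chr12:3954695-3954944, plus strand: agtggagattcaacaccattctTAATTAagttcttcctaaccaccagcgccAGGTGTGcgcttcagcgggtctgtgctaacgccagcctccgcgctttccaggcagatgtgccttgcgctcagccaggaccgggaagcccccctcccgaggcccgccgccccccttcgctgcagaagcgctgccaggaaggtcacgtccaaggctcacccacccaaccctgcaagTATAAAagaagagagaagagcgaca
Cga, chr4:34893529-34893778, plus strand: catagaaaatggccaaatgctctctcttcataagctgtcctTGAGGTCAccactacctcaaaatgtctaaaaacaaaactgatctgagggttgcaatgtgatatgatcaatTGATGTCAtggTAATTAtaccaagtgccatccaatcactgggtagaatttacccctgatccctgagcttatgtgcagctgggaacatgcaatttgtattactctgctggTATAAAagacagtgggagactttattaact
Pou1f1, chr16:65520262-65520511, plus strand: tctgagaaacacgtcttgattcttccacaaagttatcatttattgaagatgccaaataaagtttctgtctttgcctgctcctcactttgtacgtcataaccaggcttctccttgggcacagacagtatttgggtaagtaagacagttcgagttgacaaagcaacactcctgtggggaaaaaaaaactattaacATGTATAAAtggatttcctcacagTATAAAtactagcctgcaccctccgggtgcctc
Lhx3, chr2:26208250-26208499, minus strand: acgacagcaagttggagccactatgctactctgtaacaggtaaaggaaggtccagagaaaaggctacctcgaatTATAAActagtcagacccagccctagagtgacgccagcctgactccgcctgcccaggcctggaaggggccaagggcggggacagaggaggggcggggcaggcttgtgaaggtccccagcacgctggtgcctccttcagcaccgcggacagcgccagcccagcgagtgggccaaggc
Tbx19, chr1:165160774-165161023, minus strand: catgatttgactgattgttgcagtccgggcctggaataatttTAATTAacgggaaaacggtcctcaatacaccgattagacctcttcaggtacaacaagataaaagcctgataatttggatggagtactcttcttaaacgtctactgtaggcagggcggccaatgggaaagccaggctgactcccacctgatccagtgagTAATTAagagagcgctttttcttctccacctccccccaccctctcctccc

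TAATTA stood in the windows of Pomc, Cga and Tbx19, and in 4.84% of all 32851 RefSeq windows of this length. TATAAA stood before Pomc, Cga, Pou1f1 and Lhx3, with 12.4% of all windows holding it; before Lhx3 it was farther from the start, at bases -176 to -171. The T-box site before Pomc was in 5.1% of all windows and the TGANNTCA palindrome, with 2 matches before Cga, in 11.9%. The POU-type site before Pou1f1 overlapped a TATAAA and was in 7.92% of windows. TAAGCC was in 8.2% and TAATCC in 6.25% of all windows, and neither was in these 5. The second window of Lhx3 held 1 TAAGCC match and no TAATTA, and the second of Pou1f1 none of the 7 motifs. A match is a description of the letters and not evidence of binding.

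Mutant 1 stood apart from the other libraries. It listed 30811 of the entries at 0, against 19787 to 20594 in the other 5, and its log2 values correlated with theirs across tested entries at r = 0.748 to 0.762, where the other 5 reached 0.981. Counts were not analysed here. Read from the spacing of low values, depth relative to control 1 was 80.6% in control 2, 92.4% in control 3, 116% in mutant 2 and 152% in mutant 3, and it could not be read for mutant 1. A value listed at 0 there need not mean absence, and the genotype changes of the tested members are given with and without this library. The labelled tissue showed its defining marker: Col2a1, the main cartilage collagen, was 1570 to 2207 FPKM among controls and 2315 to 2660 FPKM among mutants.

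Pomc, Cga, Pou1f1, Lhx3 and Tbx19 were high in 1 control and 1 mutant embryo and low or listed at 0 in the other 4. The 2 embryos were control 2 and mutant 2. For all 8 genes control 2 was the highest control and mutant 2 the highest mutant. This order was found in 9.12% of the 15710 entries that passed the minimum mean of 1 FPKM and were tested, 5 of the 8 among them, and in 10.9% of the 26194 entries above 0 in any library. The 2 embryos were picked out by the values of these same genes, so the count of members is no test against these shares. For Lhx4, Pitx1 and Hesx1 control 2 was only 1.11, 1.18 and 1.25 times the next control. The summed level of the 8 genes was 94.7 FPKM in control 2 and 117 FPKM in mutant 2. In controls 1 and 3 it was 12 and 11.5 FPKM, and in mutants 1 and 3 it was 3.7 and 13.6 FPKM. Without Pitx1, which was above 0 in every library, the sums were 83.4 and 102 FPKM in control 2 and mutant 2, and at most 3.89 FPKM in any other library. In bulk tissue fewer pituitary cells and less RNA per cell cannot be told apart, and how much pituitary each dissection took along is not given in the labels.

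**Figure D1:**
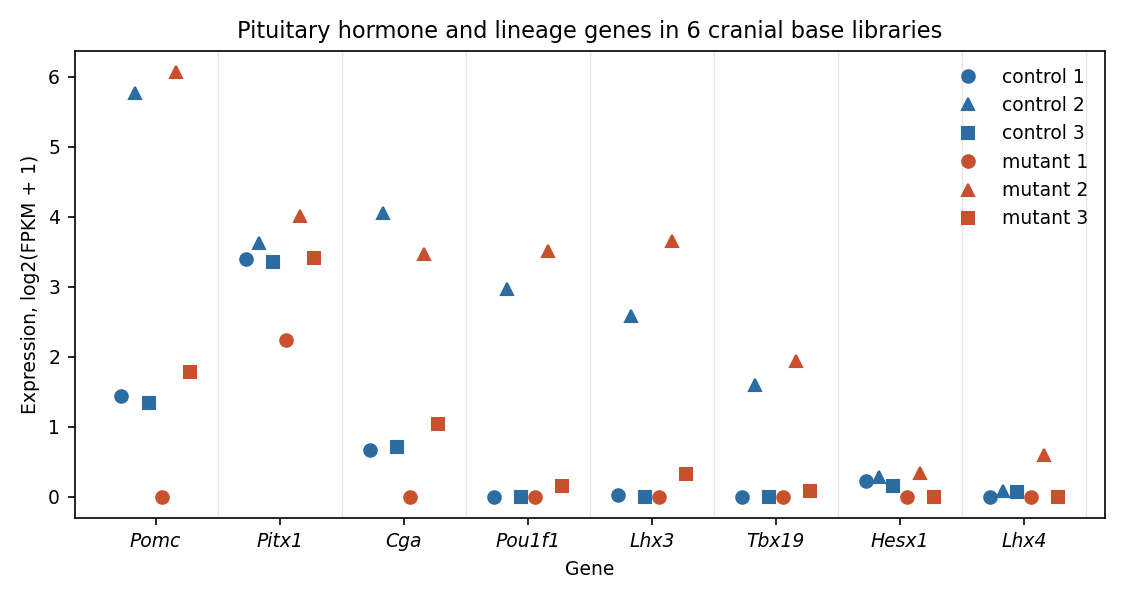
Expression of the 8 genes, as log2(FPKM + 1), in each of the 6 libraries. Blue points are controls, orange points mutants, and the triangles of control 2 and mutant 2 stand above the other points for Pomc, Cga, Pou1f1, Lhx3 and Tbx19, while those of Pitx1 lie closer together.

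Pomc was the most abundant of the hormone genes in control 2 and mutant 2, but not in every library: Lhb, given with the other hormone genes, was higher in controls 1 and 3 and mutant 3. Its level was 1.71, 53.7 and 1.53 FPKM in controls 1, 2 and 3 and 0, 66.2 and 2.44 FPKM in mutants 1, 2 and 3. Control 2 was thus 31.4 times the next control, and mutant 2 was 27.1 times the next mutant. Groups overlapped almost completely, with 1 high library in each. The log2 change on the log2(FPKM + 1) scale was -0.23 (SE 1.94, 95% interval -5.02 to 4.55, limma adjusted p = 0.952). That interval spans changes of many fold in either direction, and a difference between genotypes was not detectable in these embryos.

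Cga followed the same order at lower levels. It was 0.594, 15.6 and 0.636 FPKM in controls 1, 2 and 3 and 0, 10.1 and 1.04 FPKM in mutants 1, 2 and 3. Here control 2 was the highest library of all, and it was 24.5 times the next control. Mutant 2 was 9.64 times the next mutant. Its log2 change was -0.31 (SE 1.29, limma adjusted p = 0.905), and the groups overlapped. Without mutant 1 it turned to 0.44 (limma adjusted p = 0.890).

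Pou1f1, the POU factor of somatotropes, lactotropes and thyrotropes, was listed at 0 in controls 1 and 3 and in mutant 1. It was 6.84 FPKM in control 2, 10.4 FPKM in mutant 2 and 0.109 FPKM in mutant 3. Tbx19, the T-box factor of the cells that make Pomc, was listed at 0 in the same 3 libraries. It was 2.02 FPKM in control 2, 2.83 FPKM in mutant 2 and 0.0548 FPKM in mutant 3. Both lineage factors were therefore above 1 FPKM in the 2 embryos with high hormone genes and in no other. The log2 change of Pou1f1 was 0.23 (SE 1.29, limma adjusted p = 0.929), and 0.84 without mutant 1 (limma adjusted p = 0.790). Tbx19 averaged 0.819 FPKM, under the minimum mean of 1 FPKM, and was not tested there. Without this minimum its log2 change was 0.14 (SE 0.71, limma adjusted p = 0.945).

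Lhx3, a LIM homeodomain factor needed for the pouch to grow and for most hormone cells, was 0.018, 4.99 and 0 FPKM in controls 1, 2 and 3. In mutants 1, 2 and 3 it was 0, 11.6 and 0.245 FPKM. Mutant 2 was the highest library, above control 2. The log2 change was 0.45 (SE 1.23, limma adjusted p = 0.857), again with overlapping groups, and 1.12 without mutant 1 (limma adjusted p = 0.694). Its relative Lhx4 stayed low throughout, at 0, 0.0527 and 0.0473 FPKM among controls and 0, 0.511 and 0 FPKM among mutants. Only mutant 2 was above 0.1 FPKM for Lhx4. Hesx1, a homeodomain repressor of the early pouch that is switched off as the gland differentiates, was 0.171, 0.213 and 0.11 FPKM among controls and 0, 0.263 and 0 FPKM among mutants. Both genes were thus at most 0.511 FPKM in every library. Neither passed the minimum mean. Without it the log2 change was 0.15 for Lhx4 (limma adjusted p = 0.762) and -0.11 for Hesx1 (limma adjusted p = 0.759).

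Pitx1, a paired-type homeodomain factor, was present in every library. It was 9.55, 11.3 and 9.18 FPKM in controls 1, 2 and 3 and 3.7, 15.2 and 9.69 FPKM in mutants 1, 2 and 3. Control values lay close together and mutant 1 was the lowest of all. The control mean was 10.0 ± 1.13 FPKM and the mutant mean 9.52 ± 5.73 FPKM (SD, n = 3 each). Control 2 was 1.18 times the next control and mutant 2 was 1.56 times the next mutant. The log2 change was -0.23 (SE 0.46, 95% interval -1.37 to 0.91, limma adjusted p = 0.805). Its direction turned without mutant 1, the lowest library, to 0.26.

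By level, Pomc was first in both control 2 and mutant 2, and Tbx19, Hesx1 and Lhx4 were the 3 lowest. In control 2 Cga came next, followed by Pitx1, Pou1f1 and Lhx3. In mutant 2 Pitx1 came next, followed by Lhx3, Pou1f1 and Cga. The 3 in the last group lay between 10.1 and 11.6 FPKM, and with 1 library per embryo no error can be set on their order. In controls 1 and 3 and mutant 3 the order was Pitx1, Pomc and Cga, with every other member below 0.3 FPKM.

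No member passed the test between genotypes. Of the 5 tested, 0 were called with limma and Benjamini-Hochberg adjustment, 0 had an unadjusted p under 0.05, and 0 of 5 had groups without overlap. Over all entries tested 0% were called, 805 of 15710 had an unadjusted p under 0.05, and 20.9% had groups without overlap, 8.98% with mutants higher and 11.9% with mutants lower. The median log2 change was -0.23 over the 5 members and -0.046 over all entries. Cga, Pou1f1 and Lhx3 passed the minimum mean only through control 2 and mutant 2. With array weights, which give mutant 1 a weight of 0.0329 against 1.47 to 2.76 for the others, 2.04% of all entries were called, and without mutant 1 0.0446%, and in both cases 0 of the 5 members. In the authors' deposited table the p-value of the 8 genes ranged from 0.421 for Hesx1 to 0.924 for Pomc. The direction of Pomc depended on single embryos: its log2 change was 1.23 without control 2, -1.96 without mutant 2 and 1.07 without mutant 1.

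The first word of each title, of unstated meaning, is shared by some embryos. Control 2 shares it with control 3 and mutant 3, and within that word Pomc was 53.7 FPKM in control 2, 1.53 FPKM in control 3 and 2.44 FPKM in mutant 3. The high level was thus not common to the embryos of that word. Control 1 and mutant 1 share another word and were both low, and mutant 2 has a word to itself. With the word as a fixed term, which takes mutant 2 out of the contrast, the log2 change was -1.63 for Pomc (limma adjusted p = 0.612) and -1.06 for Cga (limma adjusted p = 0.649).

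The spread among the controls alone was wide for a tested gene. The range over the 3 controls on the log2(FPKM + 1) scale was 4.43 for Pomc, 3.38 for Cga, 2.97 for Pou1f1 and 2.58 for Lhx3. Ordered from the widest, these ranges stood at places 6, 31, 45 and 69 among 15710 entries. A range above 2 was found in 0.713% of entries. Pitx1 had a range of 0.27 and stood at place 6527. Among mutants, mutant 2 exceeded mutant 3 by 4.29 for Pomc, 3.36 for Pou1f1, 3.34 for Lhx3 and 2.44 for Cga on this scale, at places 5, 12, 13 and 27. A gap above 2 in that direction was found in 0.261% of entries. For Pitx1 the gap was 0.60. Cga, Pou1f1 and Lhx3 were among the tested entries only through control 2 and mutant 2. Their places by range and by gap therefore follow in part from the minimum mean.

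**Figure D2:**
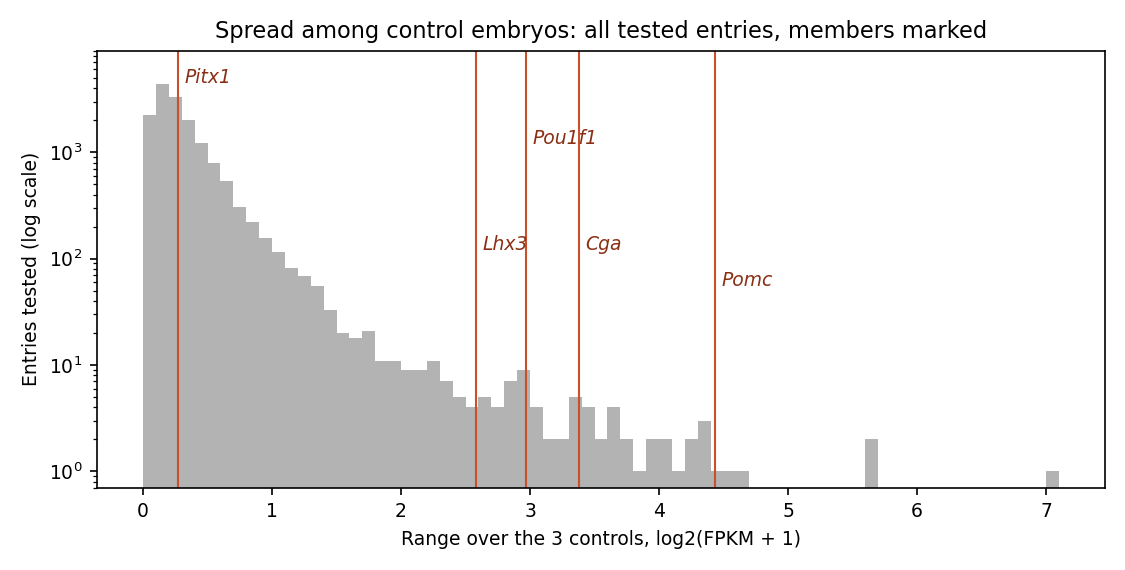
Number of tested entries, on a log scale, by their range over the 3 controls on the log2(FPKM + 1) scale. Orange lines mark the 5 tested members: Pitx1, at 0.27, lies in the bulk, and Lhx3, Pou1f1, Cga and Pomc lie in the tail, from 2.58 to 4.43.

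Few other tested entries had so large a step in both of these embryos. An order of over 4 times every other library of the same genotype, in control 2 and in mutant 2, was found in 10 of 15710 entries (0.0637%). These were Pomc, Cga, Pou1f1 and Lhx3 and, besides them, Six6, Cacna2d4, Gm23497, Gm6134, Gm12422 and Mir433. For Mir433 the ratio among controls was one of values near 0, with 0.00048 FPKM in control 2, and only mutant 2 was above 1 FPKM, at 6.59 FPKM. Entries under the minimum mean were not in this count. All of the entries in it but Pomc passed that minimum only through control 2 and mutant 2, Mir433 through mutant 2 alone. The share therefore follows in part from the minimum mean. Over the 26194 entries above 0 in any library, such a step with at least 1 FPKM in both embryos was found in 12 (0.0458%), of which 5 were members, Tbx19 being the fifth. With no minimum level it was found in 0.878%. The factor of 4 and the 2 embryos were chosen after the values were seen. Six6, a homeodomain factor of the pouch, hypothalamus and retina, was 2.45 FPKM in control 2, 3.9 FPKM in mutant 2 and at most 0.0222 FPKM elsewhere. Cacna2d4, a calcium channel subunit, was 1.68 FPKM in control 2, 4.27 FPKM in mutant 2 and at most 0.161 FPKM elsewhere.

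The entries with profiles most like those of Pomc and Cga included other pituitary genes. Likeness was the root mean square difference between log2(FPKM + 1) profiles over the 6 libraries, each centred on its own mean. For Pomc the 8 nearest of the tested entries were Cga (0.85), Pou1f1 (0.91), Lhx3 (0.99), Snora65 (1.08), Nup62cl (1.19), S100a8 (1.21), Gm6134 (1.23) and Tshb (1.24). For Cga they were Pou1f1 (0.42), Gm6134 (0.48), Tshb (0.49), Lhx3 (0.54), Gm23497 (0.54), Snora65 (0.68), Six6 (0.69) and Nup62cl (0.72). Of the 8, 6 were the same for each gene without mutant 1. Pomc was not among the 8 nearest to Cga, but with a pseudocount of 0.1 it was the nearest, at 0.81. Cga, Pou1f1, Lhx3, Tshb, Six6, Gm6134 and Gm23497 were among the tested entries only through control 2 and mutant 2. Their nearness therefore follows in part from the minimum mean. S100a8, a calcium-binding protein of neutrophils, was 8.9, 29.9 and 5.93 FPKM in controls 1, 2 and 3 and 0, 26.7 and 8.41 FPKM in mutants 1, 2 and 3.

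Other factors of the gland had this order in part. Of 7 factors of Rathke's pouch and its progenitors, 2 had control 2 and mutant 2 highest: Six6, given above, and Sox3. This order was found in 10.9% of entries above 0 in any library and in 9.12% of tested entries. The lists were chosen with earlier results of these data known, so their counts are no test against these shares. Sox3, a SOX factor also made in neural tissue, was 0.379, 0.536 and 0.295 FPKM among controls and 0, 0.915 and 0.589 FPKM among mutants. Isl1, which sensory neurons also express, was highest in control 1, at 17.5 FPKM. Sox2, a progenitor factor of many epithelia, was 6.94 to 11.1 FPKM and was highest in control 1 too. Each mutant lay below each control for Sox2, as in 11.9% of all tested entries, with no call (limma adjusted p = 0.695). Otx2 was highest in control 1 as well, at 4.49 FPKM, and Hes1 in mutant 1, at 81.1 FPKM. Of the 5 tested factors 0 were called between genotypes, with a median log2 change of -0.24.

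Other hormone genes differed among themselves. Tshb, the beta subunit of thyrotropin, was 0.0901, 16 and 0.675 FPKM in controls 1, 2 and 3 and 0, 3.86 and 1.41 FPKM in mutants 1, 2 and 3. Prl, prolactin, was 1.85 FPKM in control 2, 0.727 FPKM in mutant 2 and at most 0.0512 FPKM elsewhere. Gh, growth hormone, was 0.423 FPKM in control 2 and listed at 0 in the other 5. Fshb was listed at 0 in all 6. Lhb, the beta subunit of luteinizing hormone, did not have this order: it was 6.65, 5.59 and 5.23 FPKM among controls and 0, 2.74 and 3.37 FPKM among mutants. Each mutant lay below each control for Lhb and for Gata2, a GATA factor of thyrotropes and gonadotropes that many other tissues express, without a call for either (limma adjusted p = 0.695 for both). Of all entries 11.9% had mutants below controls without overlap. The list of 12 had 3 tested genes, with 0 called and a median log2 change of -0.62. Control 2 and mutant 2 were highest in 5 of the 12, and in 2 of the 3 tested, Tshb and Gata2. The shares were 10.9% of entries above 0 in any library and 9.12% of tested entries. Tshb passed the minimum mean only through control 2 and mutant 2. Sox3, Prl, Gh and Fshb were named outside the naming rule, with their values known.

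In the list of corticotrope and melanotrope genes 3 of 8 had control 2 and mutant 2 highest: Neurod4, Crhr1 and Avpr1b. None of the 3 was at 1 FPKM or above. This order was found in 10.9% of entries above 0 in any library. Neurod4, a basic helix-loop-helix factor also made in neurons, was 0.598 FPKM in control 2, 0.919 FPKM in mutant 2 and at most 0.0202 FPKM elsewhere. Crhr1 and Avpr1b are receptors through which hypothalamic peptides act on corticotropes. They were 0.389 and 0.19 FPKM in control 2 and 0.451 and 0.122 FPKM in mutant 2. Elsewhere Crhr1 reached 0.168 FPKM, in mutant 3, and Avpr1b 0.0269 FPKM, in control 3. These 3 were chosen after their values were seen. Among the most abundant genes of the list, the prohormone convertase Pcsk2, which cuts the Pomc precursor and is widespread in neurons, was 3, 1.89 and 1.21 FPKM among controls and 7.37, 2.41 and 2.77 FPKM among mutants. Pax7, a melanotrope factor also made in muscle progenitors and neural crest, was 1.89, 3.21 and 3.48 FPKM among controls and 1.47, 2.54 and 2.1 FPKM among mutants. Neither followed Pomc in size. Of 4 tested genes of the list 0 were called, with a median log2 change of -0.061.

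Secretory granule genes, shared by endocrine cells and neurons, had this order in 4 of 9, and in 3 of the 8 tested. It was found in 10.9% of entries above 0 in any library and in 9.12% of tested entries. Chga, found in the granule core, was 14.2, 33.1 and 14.5 FPKM among controls and 9.91, 36.4 and 26.3 FPKM among mutants. Scg2, a granin of the pituitary and of neurons, was 5.22, 25.1 and 3.04 FPKM among controls and 3.94, 42.1 and 16.8 FPKM among mutants. It was chosen after its values were seen. Cpe, the carboxypeptidase that trims peptide hormones, did not have this order: it was 153, 154 and 153 FPKM among controls and 225, 192 and 196 FPKM among mutants. Chgb, Scg3, Vgf and Resp18 did not have it either, and Resp18 was highest in mutant 1, at 114 FPKM. In 4 of the 8 tested genes, Cpe among them, each mutant lay above each control, where 8.98% of all entries did. The list was chosen with earlier results of these data known. Of 8 tested genes 0 were called, with a median log2 change of 0.47, and 1 was higher in mutants with array weights.

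Between the 2 embryos with high pituitary genes the members were not all in 1 proportion. The level in mutant 2 divided by that in control 2 was 1.23 for Pomc, 1.24 for Hesx1, 1.34 for Pitx1, 1.4 for Tbx19, 1.52 for Pou1f1, 2.32 for Lhx3 and 9.7 for Lhx4. That of Lhx4 rests on 0.0527 FPKM in control 2. For Six6 the ratio was 1.59. Cga, Tshb and Prl ran the other way, with control 2 at 1.54, 4.13 and 2.54 times the level in mutant 2. The ratio of Pomc to Cga within a library was 2.88, 3.45 and 2.41 in controls 1, 2 and 3 and 6.58 and 2.34 in mutants 2 and 3. That of Pou1f1 to Tbx19 was nearer between the 2 embryos, at 3.38 in control 2 and 3.67 in mutant 2, but was 1.98 in mutant 3. That of Tbx19 to Pomc was 0.0377 in control 2 and 0.0428 in mutant 2. Other ratios lay farther apart in control 2 and mutant 2: Tshb to Cga at 1.03 and 0.384, Pou1f1 to Cga at 0.44 and 1.03, and Lhx3 to Pomc at 0.0929 and 0.175. These ratios compare 1 library with 1 library, with no replicate check.

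**Figure D3:**
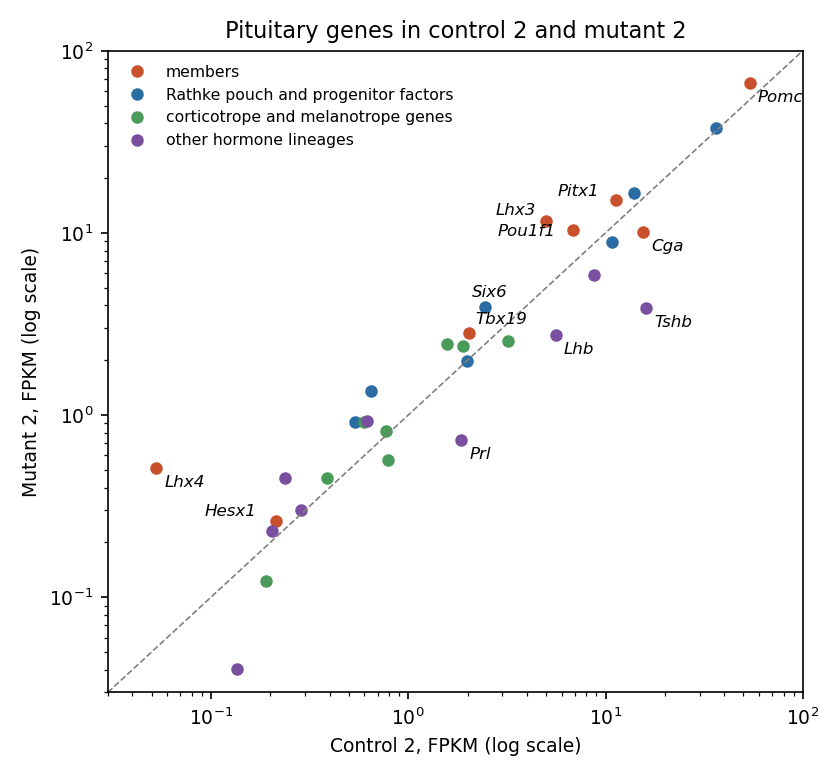
FPKM in control 2 and in mutant 2 (log scales) for those of the 8 members and of 3 lists of other pituitary genes that were above 0 in both. The dashed line marks equal levels: Lhx3 and Lhx4 lie above it, and Cga, Tshb, Prl and Lhb below it.

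Markers of neighbouring tissues were counted for the same order, which 9.12% of all tested entries had and 10.9% of those above 0 in any library. Summed over 9 neuronal genes with an entry, the level was 418, 312 and 223 FPKM in controls 1, 2 and 3 and 353, 290 and 358 FPKM in the mutants. Of these neuronal genes 0 had control 2 and mutant 2 highest, and neither did any of 7 genes of sensory ganglion neurons or of 10 cartilage genes. It was 1 of 6 for Schwann cells and 1 of 10 for epithelia. Genes of the infundibulum and ventral hypothalamus, the neural tissue that adjoins the pituitary, had this order in 4 of 10, and in 2 of the 4 tested. Their summed level was 9.96, 16 and 9.82 FPKM among controls and 16.1, 14.3 and 10.3 FPKM among mutants. Within that list Rax, a factor of the infundibulum and retina that was chosen after its values were seen, was 0.354 FPKM in control 2, 0.724 FPKM in mutant 2 and at most 0.0437 FPKM elsewhere. Others of the list differed from it: Nkx2-1 was 6.39 FPKM in mutant 1 against 0.489 FPKM in mutant 2, Fgf10 was highest among mutants in mutant 3, at 4.46 FPKM, and Vax1, named after its values were seen, was 0.704 FPKM in control 2 and listed at 0 in mutant 2. Oxt was listed at 0 in every library and Avp in 5 of 6. The part of these tissues in the level of the members was not tested.

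**Figure D4:**
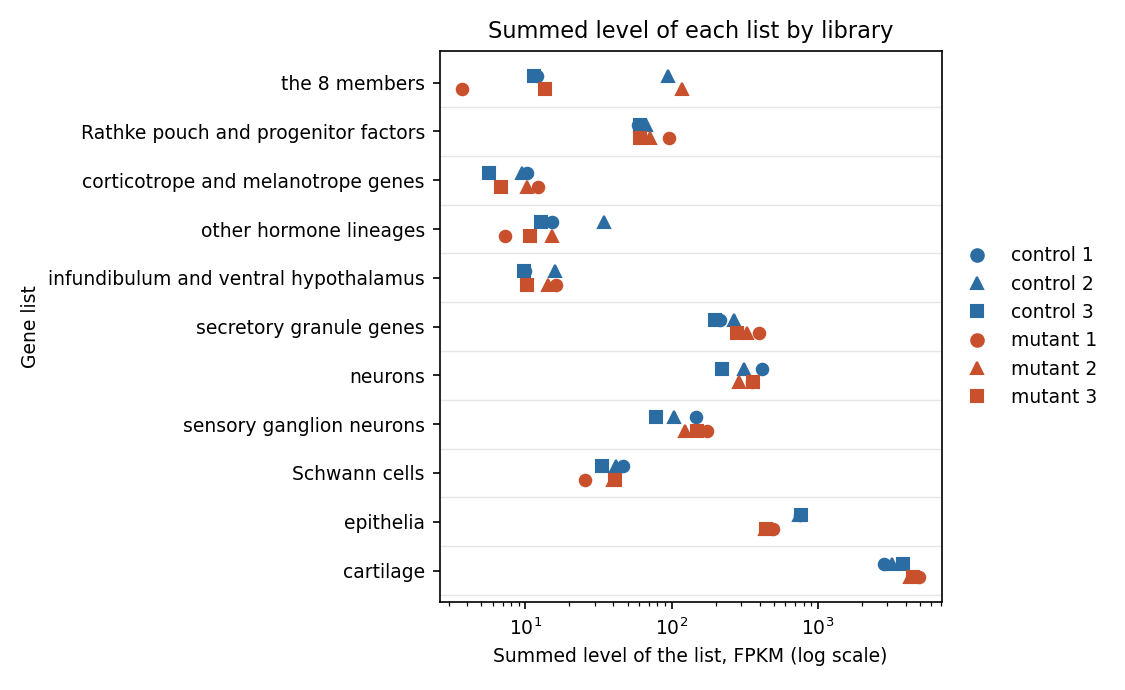
Summed FPKM of each gene list (log scale) in the 6 libraries, controls in blue and mutants in orange. The sum of the 8 members splits into control 2 and mutant 2, at 94.7 and 117 FPKM, and the other 4 libraries, at 3.7 to 13.6 FPKM, whereas the sums for neurons, cartilage and epithelia do not.

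Summed levels of epithelial and cartilage markers split by genotype, with control 2 among the controls and mutant 2 among the mutants. The epithelial sum was 744 to 772 FPKM in controls and 434 to 496 FPKM in mutants, and the cartilage sum 2829 to 3835 FPKM and 4311 to 4930 FPKM. In 6 of 10 epithelial genes each mutant lay below each control, where 11.9% of all entries did, and in 9 of 10 cartilage genes each mutant lay above each control, where 8.98% did. Of these 10 and 10 tested genes, 0 were called in either list with equal weights. With array weights 7 epithelial genes were called lower and 4 cartilage genes higher, where 2.04% of all entries were called. Without mutant 1 these counts were 2 and 0, where 0.0446% of all entries were called. Both lists were chosen with earlier results of these data known, so their counts are no test against these shares.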

How the data were processed

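Total RNA of the cranial base of 6 embryos was sequenced, 1 library each, per the labels' protocols. The authors deposited FPKM values per gene; the submitters' processing notes name Cufflinks, with no version, and build mm9. No source used here gives the aligner, annotation or filters, and the unit was inferred from this tool and the values. The deposited p-value comes from a test that is not given. Entries with the code 999999999 (15) were treated as missing and left out.

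Entries with a mean of at least 1 FPKM (15710) were compared on the log2(FPKM + 1) scale by limma 3.58.1 (R 4.3.3; eBayes with a mean trend and robust variances). The model held genotype alone, tests were two-sided, and p was adjusted over all entries by Benjamini-Hochberg, with a threshold of 0.05. Fold changes on this scale understate those of low genes. The script was tested on simulated data. Depth steps were read where control 1 was under 0.1 FPKM. Replicates are separate embryos by their labels, numbered in accession order, and at most 0.00641% of values were equal between any 2 libraries. The members and the 10 context lists (89 genes, 1 without an entry) were chosen with earlier results of these data known. Some further genes of 2 lists are not reported here. The naming rule took all members, up to 4 genes per list by mean and up to 4 by p, and the 8 nearest profiles to Pomc and Cga. Sequences are RefSeq promoter windows of GRCm38.p6, matched by symbol, without the 50 bases after the start. Alternatives were another pseudocount, filter, scaling, weights, title word terms (statmod 1.5.0) and each library left out.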

Additional observations from a re-analysis of the deposited data

How the results depend on the processing

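Under 14 alternatives 0 members were called. No tested member's groups were free of overlap with all 6 libraries or with any 1 left out, where this was recomputed. Hesx1, under the minimum mean, was listed at 0 in mutants 1 and 3 and overlapped the controls only through mutant 2. Directions were not stable. For Pomc the log2 change was 0.21 with array weights and 0.27 with quantile normalization, and leaving out 1 library gave -1.96 to 1.23. Cga was 0.13 with quantile normalization and -1.29 to 0.81 with 1 library left out. Pitx1 was 0.15 with array weights and -0.63 to 0.26 with 1 library left out. With the title word as a replicate block, a fixed term, Lhx3 was -0.57 and Pou1f1 -0.76, and with 1 library left out they ranged from -0.71 to 1.31 and from -0.92 to 1.22. As a random effect (consensus correlation 0.11) the block turned no direction. Over these alternatives the limma adjusted p of the tested members was never under 0.496. Upper quartile scaling gave -0.23 for Pomc and -0.29 for Cga, close to the values without it, but moved the median of all entries to -0.35; relative to that median Pomc was 0.12, Cga 0.054, Pou1f1 0.62, Pitx1 -0.16 and Lhx3 0.85. In the context lists 0 genes were called, 12 with array weights and 2 without mutant 1, with 0 to 2 over the libraries left out. With a pseudocount of 0.1, 4 of the 8 entries nearest to Cga were shared. A mean of at least 5 FPKM left Pomc and Pitx1 as the members tested. Lhx4 and Hesx1 were at most 0.511 FPKM and could be tested without the minimum mean only, and 3 embryos per group cannot go below 0.1 in an exact permutation test.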
